A study of Mus musculus with 10 samples.

Results

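A set of 7 genes of glutamine handling and of the pericentral liver was followed through all 10 Visium sections of the series, out of 31053 genes in the count tables. They were taken by symbol, with earlier results of these data known: Glul, Rhbg, Slc1a2, Oat, Gls2, Cyp2e1 and Cyp1a2. Visium captures polyadenylated RNA from a frozen tissue section on an array of barcoded spots, and each captured molecule is counted once as a UMI. A spot covers several cells, so a level belongs to a small area and not to a cell.

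In a healthy liver lobule, blood runs from the portal tract to the central vein, and hepatocytes along this path carry different enzymes. Hepatocytes at the portal end take up glutamine, release its ammonia through glutaminase and feed it to the urea cycle, while a thin layer of hepatocytes at the central vein scavenges the ammonia that escapes and fixes it again as glutamine. Wnt signals from the endothelium of the central vein sustain this central program, and Glul is widely used in liver pathology as a readout of beta-catenin activity.

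The sections came from 7 mouse tissues: NEJ146 with 4 adjacent sections, and NEJ634, NEJ638, NEJ654, NEJ677, NEJ687 and NEJ723 with 1 section each. The labels call every tissue hepatoblastoma and give no genotype, sex or age per tissue. The study's text names NEJ146, NEJ634, NEJ687 and NEJ723 as tumors of ABC-Myc mice (Alb-Cre and CAG-Myc on C57BL/6J). In these mice, Cre driven by albumin regulatory sequence removes a stop cassette in hepatocytes and so switches on human MYC. The text speaks of 3 healthy livers without naming them, and NEJ638, NEJ654 and NEJ677 were taken as these from the study's figures. The study's normal controls were littermates lacking Alb-Cre, CAG-MYC or both. The 3 healthy livers therefore may still carry 1 of the transgenes, and which one is not given per tissue. Because this split comes from the study's text and figures and each mouse gave 1 tissue, every comparison of livers with tumors below is a description with no test.

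Some marker genes set the same tissues apart and others overlapped. Afp, the fetal liver protein used as a hepatoblastoma marker, lay between 3.79 and 9.63 UMIs per 1000000 UMIs (CPM) in the 3 livers and between 2023 and 4248 CPM in the 4 tumors. Igf2 and Dlk1 were likewise higher in every tumor. Gpc3 overlapped, at 0.305 to 5.12 CPM in the livers and 3.59 to 30.6 CPM in the tumors. The summed bile duct, stromal and macrophage markers overlapped too. The 5 hepatocyte markers summed to 87391 to 119883 CPM in the livers and 15902 to 31296 CPM in the tumor sections, and the 6 erythroid markers to 96.5 to 252 CPM against 923 to 10215 CPM. In bulk sums over spots of this kind, fewer hepatocytes and less RNA per hepatocyte cannot be told apart. The sections held 39280329 to 117077925 UMIs over 1890 to 4878 tissue spots. Spots not called tissue held RNA as well, with a median of 6660 to 11895 UMIs per spot in the 6 tissues with tissue calls. Of the spots with under 500 UMIs, 361 of 442 were called tissue in NEJ687, 50 of 52 in NEJ638, 172 of 318 in NEJ677 and 182 of 449 in NEJ723, so it is open to doubt whether the deposited calls follow the tissue there, and on-tissue and off-tissue values of these tissues are uncertain. NEJ146 came with no tissue calls in the files used here, so its spots with at least 8000 UMIs were taken. In the 6 other tissues the same limit kept 75.1% to 99.8% of the tissue spots but also 44.0% to 69.8% of the spots off tissue. NEJ146 also differed from the rest in its software and in its mitochondrial share, 6.78% to 7.22% of UMIs against 2.46% to 3.86%, and its batch and its tissue cannot be told apart.

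The promoters are shown first because Wnt signaling acts through TCF/LEF factors, whose core word could be looked for in them. Of the 7 genes, 5 matched a RefSeq promoter window (GRCm38.p6, 250 bases before to 50 bases after the annotated start). The words CTTTGAT and CTTTGAA were searched on both strands, with overlapping matches allowed. They were found in 3 of the 5 windows and in 2842 of all 32851 windows (8.65%). The windows of Cyp2e1 (chr7:140763569-140763868, plus strand), Cyp1a2 (chr9:57683606-57683905, minus strand) and Slc1a2 (chr2:102706188-102706487, plus strand, at a start inside the annotated gene) hold 1 word each, in capitals, and that of Glul (chr1:153899679-153899978, plus strand) holds none and is shown as the gene the rest are compared with.
Cyp2e1: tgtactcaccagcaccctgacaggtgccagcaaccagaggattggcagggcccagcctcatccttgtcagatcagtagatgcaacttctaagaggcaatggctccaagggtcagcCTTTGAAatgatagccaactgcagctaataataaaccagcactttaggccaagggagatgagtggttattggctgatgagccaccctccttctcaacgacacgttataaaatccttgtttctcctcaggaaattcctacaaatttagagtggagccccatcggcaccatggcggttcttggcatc
Cyp1a2: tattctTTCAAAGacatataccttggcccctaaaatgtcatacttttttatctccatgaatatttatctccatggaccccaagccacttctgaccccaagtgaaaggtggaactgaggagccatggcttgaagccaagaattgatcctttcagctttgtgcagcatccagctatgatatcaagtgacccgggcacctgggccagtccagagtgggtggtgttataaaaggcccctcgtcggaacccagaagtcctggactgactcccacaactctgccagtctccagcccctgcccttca
Slc1a2: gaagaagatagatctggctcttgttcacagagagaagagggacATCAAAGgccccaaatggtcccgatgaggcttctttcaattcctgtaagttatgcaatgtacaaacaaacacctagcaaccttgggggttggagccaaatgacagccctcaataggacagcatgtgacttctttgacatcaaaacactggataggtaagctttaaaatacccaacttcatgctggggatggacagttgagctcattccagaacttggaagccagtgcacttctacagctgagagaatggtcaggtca
Glul: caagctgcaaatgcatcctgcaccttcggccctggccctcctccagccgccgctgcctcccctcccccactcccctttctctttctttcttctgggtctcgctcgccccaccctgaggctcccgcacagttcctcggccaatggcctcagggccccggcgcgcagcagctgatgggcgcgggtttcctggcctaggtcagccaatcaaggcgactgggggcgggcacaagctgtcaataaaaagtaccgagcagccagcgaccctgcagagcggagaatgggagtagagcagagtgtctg
The word starts at base 116 of the window in Cyp2e1, at base 7 in Cyp1a2 (other strand) and at base 44 in Slc1a2 (other strand). A match is a description of these letters only, and factor binding was not measured. In GENCODE annotation of GRCm38, Glul lies on chromosome 1 (153899944 to 153909723), Rhbg on chromosome 3 (88242874 to 88254709), Slc1a2 on chromosome 2 (102658659 to 102790784), Oat on chromosome 7 (132557478 to 132576398), Gls2 on chromosome 10 (128194457 to 128210004), Cyp2e1 on chromosome 7 (140763739 to 140774987) and Cyp1a2 on chromosome 9 (57676937 to 57683703).

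All 7 genes were higher in every healthy liver than in every tumor, 6 of them by a wide margin and Gls2 by a narrow one. By a fixed rule, a gene counted as higher when the lowest of the 3 livers was at least 2-fold above the highest of the 4 tumors. This held for 6 of 7 genes, against 4.97% of 9546 genes with at least 10 CPM in 1 or more tissues. It is not particular to these genes. Of the marker genes used below to order liver spots, it held for 10 of 12 tested central ones and 3 of 11 portal ones. The opposite rule, the lowest tumor at least 2-fold above the highest liver, held for none of the 7 and for 11.8% of the 9546. Levels are in CPM over tissue spots, with exact Poisson 95% intervals for single sections, which cover counting error only, and mean ± SD over the 4 sections of NEJ146.

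**Figure D1:**
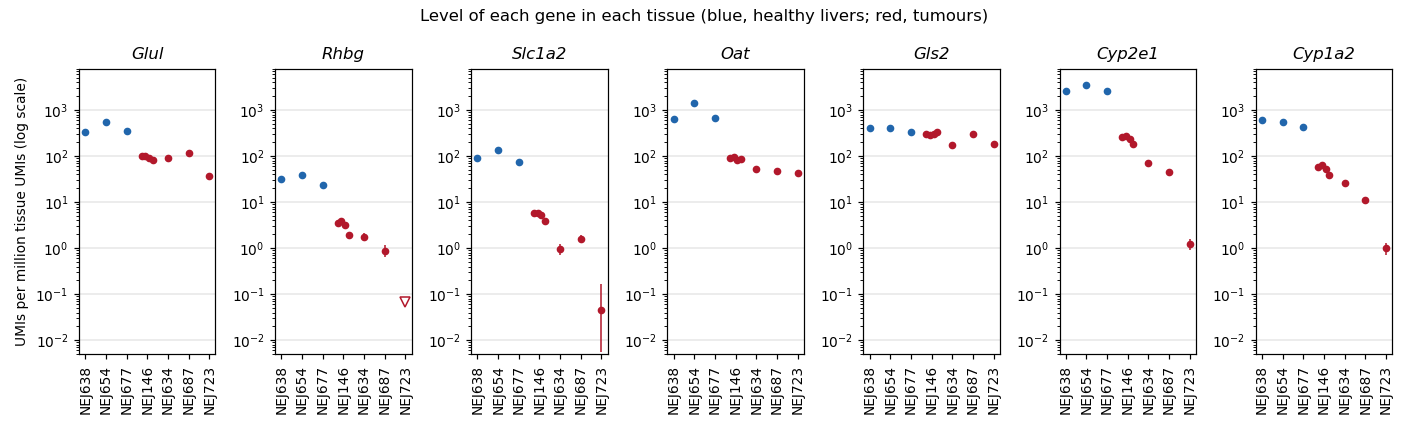
Level of each gene (CPM over tissue spots, log scale) in 3 healthy livers (blue) and 4 tumors (red); each point is a section with its 95% Poisson interval, the 4 points of NEJ146 are adjacent sections, and the open triangle marks 0 UMIs, drawn at the level that 3 UMIs would give. The gap between blue and red is widest for Slc1a2 and Cyp2e1 and narrowest for Gls2, where 342 CPM in NEJ677 stands beside 312 CPM in NEJ146.

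Glul encodes glutamine synthetase, which joins ammonia to glutamate. It measured 333 CPM (95% interval 328 to 338) in NEJ638, 561 CPM (554 to 568) in NEJ654 and 348 CPM (342 to 354) in NEJ677. In the tumors it measured 98.5, 102, 93.4 and 81.0 CPM in the 4 sections of NEJ146 (93.6 ± 9.07, SD, n = 4), 89.0 CPM (86.5 to 91.5) in NEJ634, 116 CPM (113 to 119) in NEJ687 and 36.4 CPM (34.6 to 38.2) in NEJ723. Livers and tumors did not overlap, NEJ654 stood highest and NEJ723 lowest, and NEJ146 and NEJ634 did not differ beyond the spread over sections. The lowest liver was 2.87-fold above the highest tumor, the smallest gap among the 6 genes that passed the rule.

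Rhbg encodes an ammonium transporter of the Rhesus family and Slc1a2 a high-affinity glutamate transporter, and both supply the substrates of glutamine synthetase. Rhbg measured 32.5, 39.5 and 24.2 CPM in NEJ638, NEJ654 and NEJ677, and 3.13 ± 0.841 (SD, n = 4), 1.77, 0.871 and 0 CPM in NEJ146, NEJ634, NEJ687 and NEJ723. The tumor values rest on few molecules, with 100 UMIs in NEJ634, 50 in NEJ687 and 0 of 43641797 in NEJ723, where 3 UMIs would give 0.0687 CPM. Rhbg was thus at least 351.8-fold higher in NEJ677 than in NEJ723 on that floor. Slc1a2 measured 92.6, 139 and 76.2 CPM in the 3 livers and 5.11 ± 0.896 (SD, n = 4), 0.955, 1.60 and 0.0458 CPM in the 4 tumors in the same order. The 2 UMIs of Slc1a2 in NEJ723 put NEJ677 1663-fold higher, with a counting interval of 460 to 13736. Both transporters were lowest in NEJ723, and their livers and tumors stood apart by 7.73-fold and 14.9-fold at the nearest values.

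Oat encodes ornithine aminotransferase, a mitochondrial enzyme that yields glutamate from ornithine. It measured 651, 1433 and 675 CPM in NEJ638, NEJ654 and NEJ677. In the tumors it measured 89.4 ± 5.61 (SD, n = 4), 53.8, 47.0 and 42.8 CPM in NEJ146, NEJ634, NEJ687 and NEJ723. As measured, the tumors ran NEJ146, NEJ634, NEJ687 and NEJ723 from high to low, but the order below NEJ146 is not secured. Oat in spots off tissue measured 53.1 CPM in NEJ634, 65.2 CPM in NEJ687 and 46.3 CPM in NEJ723. Among the livers, NEJ654 stood 2.12-fold above the next. The nearest liver and tumor were 7.28-fold apart.

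Gls2 encodes the liver-type glutaminase, which runs the opposite reaction and releases ammonia from glutamine. It measured 418, 415 and 342 CPM in the 3 livers. In the tumors it measured 310, 295, 302 and 340 CPM in the sections of NEJ146 (312 ± 19.9, SD, n = 4), 176 CPM in NEJ634, 308 CPM in NEJ687 and 179 CPM in NEJ723. The mean of NEJ146 was 1.097-fold below NEJ677, and the tumors formed a higher pair (NEJ146 and NEJ687) and a lower pair (NEJ634 and NEJ723), neither of which differed within itself beyond its error. The count of Gls2 molecules per Glul molecule was 0.739 to 1.26 in the livers and 1.98 to 4.92 in the tumors, highest in NEJ723.

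Cyp2e1 and Cyp1a2 encode cytochrome P450 enzymes of the central lobule, the first known for oxidizing ethanol and paracetamol and the second for caffeine. Cyp2e1 measured 2593, 3599 and 2657 CPM in NEJ638, NEJ654 and NEJ677. In the tumors it measured 264, 270, 234 and 182 CPM in NEJ146 (237 ± 40.4, SD, n = 4), 70.5 CPM in NEJ634, 45.6 CPM in NEJ687 and 1.21 CPM (0.910 to 1.59, 53 UMIs) in NEJ723. Cyp1a2 measured 604, 547 and 429 CPM in the livers and 53.3 ± 10.6 (SD, n = 4), 25.6, 11.4 and 0.985 CPM in the tumors. Both genes ordered the 4 tumors alike, NEJ146, NEJ634, NEJ687 and NEJ723 from high to low as measured, but the order of NEJ634 and NEJ687 is not secured, since both levels lay below those off tissue given next. Glul did not follow that order, since NEJ687 held the most Glul of the tumors. Cyp2e1 UMIs per Glul UMI accordingly ranged from 6.41 to 7.79 in the livers and from 0.0334 in NEJ723 to 2.53 in NEJ146.

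Several of these low tumor levels were no higher than in spots off tissue on the same array. In NEJ634, Cyp2e1 measured 130 CPM off tissue against 70.5 CPM on tissue, Cyp1a2 43.1 against 25.6, and Rhbg 3.89 against 1.77. In NEJ687, Cyp2e1 measured 80.5 CPM off tissue against 45.6 on tissue. In NEJ723, it measured 2.79 against 1.21. Glul also measured more off than on tissue in NEJ634, 108 against 89.0 CPM, and in NEJ723, 43.4 against 36.4 CPM. The ratio of off to on tissue was likewise above 1, among others, for Slc1a2 in NEJ634 (1.36) and for Oat (1.39) and Cyp1a2 (1.38) in NEJ687. It was also above 1 for Oat (1.08) and Cyp1a2 (1.203) in NEJ723 and for Glul in the 4 sections of NEJ146 (1.03 to 1.12). In NEJ146 the spots off tissue are only those under the UMI limit. The off-tissue counting intervals include the on-tissue level for these Glul values, for Slc1a2 in NEJ634 and for Cyp1a2 in NEJ723. Gls2 too measured more off than on tissue in NEJ634, 187 against 176 CPM, and in section 2 of NEJ146, 388 against 295 CPM. Its ratio of off to on tissue was 0.925 to 1.31 over the sections of NEJ146, 0.826 in NEJ687 and 0.767 in NEJ723. The livers showed ratios above 1 too in part, with a range of 0.696 to 1.15 over the 7 genes and the highest value for Cyp1a2 in NEJ654. Within NEJ634, tissue spots within 3 steps of an off-tissue spot held 90.9 CPM of Cyp2e1 and those farther inside 57.5 CPM. A tumor level at or below the one off tissue cannot be assigned to the tumor tissue from these data, whichever way the tissue calls err. The patterns described below for the same genes and tumors, Glul, Oat, Gls2 and the P450 pair included, carry the same limit. The part of RNA spreading across the slide was not tested.

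Other genes of glutamine and glutamate metabolism were taken from fixed lists, with the same rule of size, to be read beside the 4.97% of all genes higher in the livers and the 11.8% higher in the tumors. Of 9 genes of glutamine use, all tested, 5 were higher in the tumors (among them Asns, Cad, Ctps and Pfas), 0 were higher in the livers and 4 passed neither rule. Asns, asparagine synthetase, measured 1.44 to 2.38 CPM in the livers and 67.4 to 150 CPM in the tumors, so the lowest tumor was 28.3-fold above the highest liver. Ctps, CTP synthase, measured 2.27 to 9.38 CPM against 39.5 to 76.3 CPM. Gls2 and Gmps, GMP synthetase, had the largest ratios of lowest liver to highest tumor in this list, at 1.097 and 0.327.

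Of 10 transporters of glutamine and glutamate, 4 were higher in the tumors (Slc1a5, Slc7a5, Slc38a1 and Slc38a5), 2 were higher in the livers (Slc1a2 and Slc38a3) and 4 passed neither rule. Slc38a3, the system N glutamine transporter, measured 1603, 1405 and 1189 CPM in the livers and 244 to 536 CPM in the tumors. Slc7a5, which exchanges glutamine for large neutral amino acids, measured 1.71 to 3.13 CPM in the livers and 16.9 to 66.4 CPM in the tumors, and Slc38a5 0.141 to 0.528 CPM against 1.57 to 15.2 CPM. Of 8 tested genes of transamination and proline metabolism, 2 were higher in the tumors, a share that so short a list does not set apart from the 11.8% of all genes, and 6 passed neither rule. Aldh18a1, which makes the proline precursor from glutamate, measured 1.18 to 1.68 CPM in the livers and 11.9 to 60.03 CPM in the tumors. Gpt and Prodh, alanine transaminase and proline dehydrogenase, had the largest liver to tumor ratios there, at 1.76 and 1.42. In the list of glutamine synthesis and ammonia uptake, 4 of 6 tested genes were higher in the livers, all of them among the 7 genes, with the largest ratios for Slc1a2 and Rhbg. The smallest belonged to Cps1, the urea cycle entry enzyme, at 0.738, and to Glud1, glutamate dehydrogenase, at 1.49. The median ratio was 5.08 in that list, 0.0872 for glutamine use, 0.282 for the transporters and 0.991 for transamination and proline, beside 0.506 over the 9546 genes.

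Within the healthy livers, 4 of the genes formed a narrow central zone, the P450 pair a broad one, and Gls2 its mirror image. Spots were ordered from the central to the portal end by UMIs of 15 central and 11 portal marker genes, none of them among the 7. The position of a gene is the percentage of all UMIs, counted from the central end, within which 50% of its own UMIs lie, so that an evenly spread gene sits at 50%. Of the 7 genes, 6 lay at 40% or less in all 3 livers, against 0.921% of 6515 genes with at least 10 CPM in each, and Gls2 lay at 60% or more in all 3, as did 0.691% of the 6515.

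Slc1a2 had the most central position, at 12.5% (95% interval 11.7 to 12.97) in NEJ638, 16.4% (15.8 to 17.2) in NEJ654 and 10.4% (9.95 to 11.2) in NEJ677. Rhbg sat at 13.7%, 18.3% and 13.96%, Oat at 15.5%, 19.3% and 12.2%, and Glul at 15.9%, 19.6% and 12.5% in the same order. By the mean over the 3 livers, Slc1a2, Rhbg, Oat and Glul were the 4 most central of the 6515 genes, with 0, 1, 2 and 3 genes ahead of them. Cyp2e1 sat at 28.9%, 29.0% and 25.5%, with 17 genes ahead of it, and Cyp1a2 at 32.5%, 30.4% and 26.4%, with 21 ahead. Gls2 sat at 69.2%, 68.6% and 69.1%, where 23 genes lay farther to the portal side. The intervals of the narrow group and of the P450 pair did not overlap in any liver, while those of Slc1a2 and Rhbg overlapped in NEJ638 and NEJ654, and those of Rhbg, Oat and Glul overlapped in part and gave no fixed order.

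**Figure D2:**
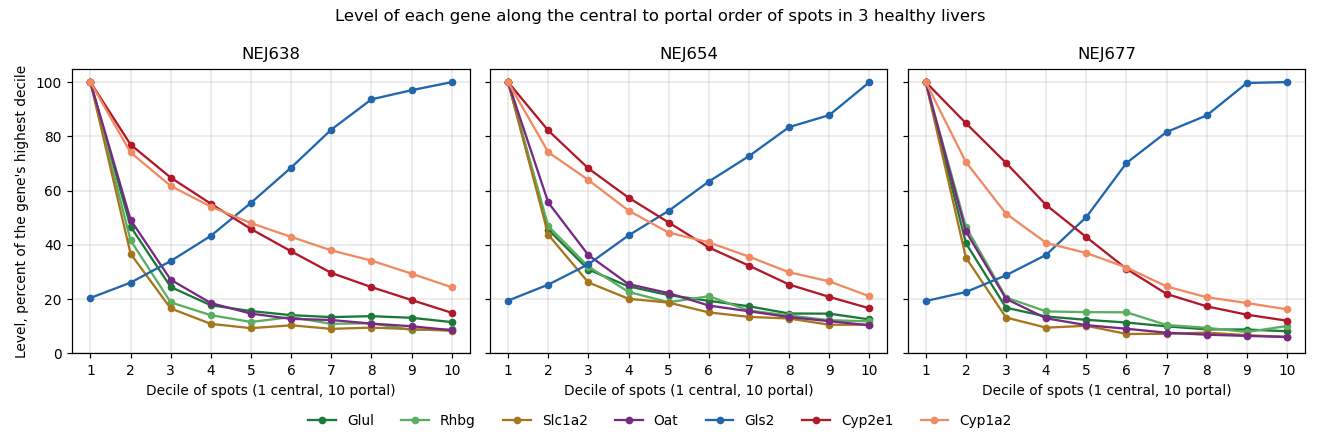
Level of each gene in 10 equal groups (deciles) of the tissue spots ordered from central (1) to portal (10), as a percentage of the gene's own highest decile, in the 3 healthy livers. Glul, Rhbg, Slc1a2 and Oat fall to 35.3% to 55.6% in the second decile, Cyp2e1 and Cyp1a2 only to 70.5% to 84.9%, and Gls2 climbs to its highest value in the last decile.

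The drop next to the central end set the narrow group apart. From the first to the second decile of spots, that is of 10 equal groups along this order, Glul fell from 1099 to 514 CPM in NEJ638, from 1703 to 777 CPM in NEJ654 and from 1462 to 594 CPM in NEJ677. The same step left Slc1a2 at 35.3% to 43.8% of its first decile, Rhbg at 41.7% to 46.9%, Oat at 44.96% to 55.6%, Cyp2e1 at 76.97% to 84.9% and Cyp1a2 at 70.5% to 74.2%. The central decile held 38.7% to 53.1% of the UMIs of the 4 narrow genes, 23.5% to 27.0% of those of the P450 pair and 3.49% to 4.64% of those of Gls2, while it held 10.7% to 13.4% of all UMIs.

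None of the 7 genes reached 0 at the far end. Glul was still at 127, 213 and 119 CPM in the portal decile of NEJ638, NEJ654 and NEJ677, so the central decile was 8.68-fold (8.02 to 9.40), 7.99-fold (7.49 to 8.53) and 12.3-fold (11.2 to 13.5) above it. Oat was among the steepest, at 11.7-fold, 9.65-fold and 16.6-fold, and Cyp1a2 the shallowest, at 4.10-fold, 4.75-fold and 6.17-fold. Gls2 ran the other way by 4.89-fold, 5.14-fold and 5.19-fold. RNA spreading between spots flattens such slopes by an amount that was not tested. The portal deciles also gave a yardstick for the tumors. Cyp2e1 in the portal decile, 701 to 1164 CPM, was 2.96-fold or more above the highest tumor, and Oat, 175 to 439 CPM, 1.955-fold or more, whereas the lowest portal decile of Glul stood only 1.03-fold above NEJ687.

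The zone was narrow in distance on the slide as well. A co-occurrence ratio was computed as the sum over spots of the product of the UMIs of 2 genes, divided by the sum that spot totals and overall shares alone would give, so that 1 means no relation. It was also taken for 1 gene with itself, within a spot and between spots a given number of array steps apart. For Glul the ratio was 2.65, 2.42 and 3.16 within a spot in NEJ638, NEJ654 and NEJ677, 1.54, 1.56 and 1.73 between neighboring spots, and 1.21, 1.16 and 1.096 at 2 steps. Oat ran close to it, at 2.73, 2.21 and 2.95 within a spot and 1.24, 1.2005 and 1.09 at 2 steps. Cyp2e1 started lower, at 1.498, 1.43 and 1.51, and kept 1.31, 1.31 and 1.33 at 1 step. At 3 steps Glul was at 1.14, 1.04 and 0.925, and all 7 genes lay below 1 in NEJ677.

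**Figure D3:**
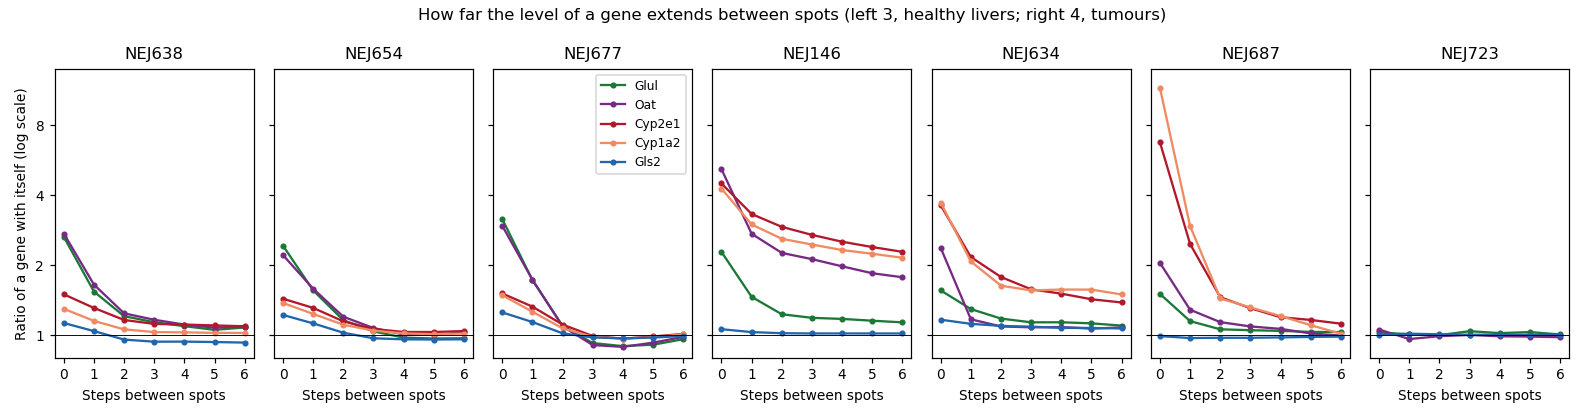
Ratio of a gene with itself (log scale, 1 means no relation) for spots 0 to 6 array steps apart, in the 3 healthy livers (left) and 4 tumors (right); each line is 1 gene, and NEJ146 is the mean of 4 sections. The lines of the drawn genes Glul, Oat, Cyp2e1, Cyp1a2 and Gls2 lie between 0.907 and 1.16 at 3 steps in the livers. Cyp2e1 in NEJ146 is still at 2.28 after 6 steps, and Glul and Oat in NEJ723 are flat near 1. Genes with too few UMIs in NEJ723 are left out there.

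Pairs of genes fell into the same groups. A pair counted as sharing spots at a ratio of 1.2 or more. All 15 pairs without Gls2 shared spots in all 3 livers, and the 6 pairs with Gls2 lay below 1 in all 3, between 0.556 and 0.748. Beside Glul, 1.63% of 6514 other genes reached 1.2 in all 3 livers. Within the narrow group the ratios were 2.24 to 3.41, between that group and the P450 pair 1.56 to 1.94, and between Cyp2e1 and Cyp1a2 1.38, 1.39 and 1.47. By the lowest plain ratio over the 3 livers, which runs higher for genes gathered in few spots, the highest of 6514 genes were again members: Slc1a2, Rhbg and Oat for Glul (2.49, 2.47 and 2.24), and Slc1a2, Rhbg and Oat for Cyp2e1 (1.64, 1.63 and 1.62) and Cyp1a2 (1.68, 1.67 and 1.63). Rhbg, Slc1a2 and Oat each had the other 3 of the narrow group as their nearest. The nearest to Gls2 were Slc3a1, an amino acid transporter subunit, at 1.24, Aldh1b1, an aldehyde dehydrogenase, at 1.24, and Cyp2f2, a portal P450, at 1.21, the last 2 being genes of the portal ordering list.

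**Figure D4:**
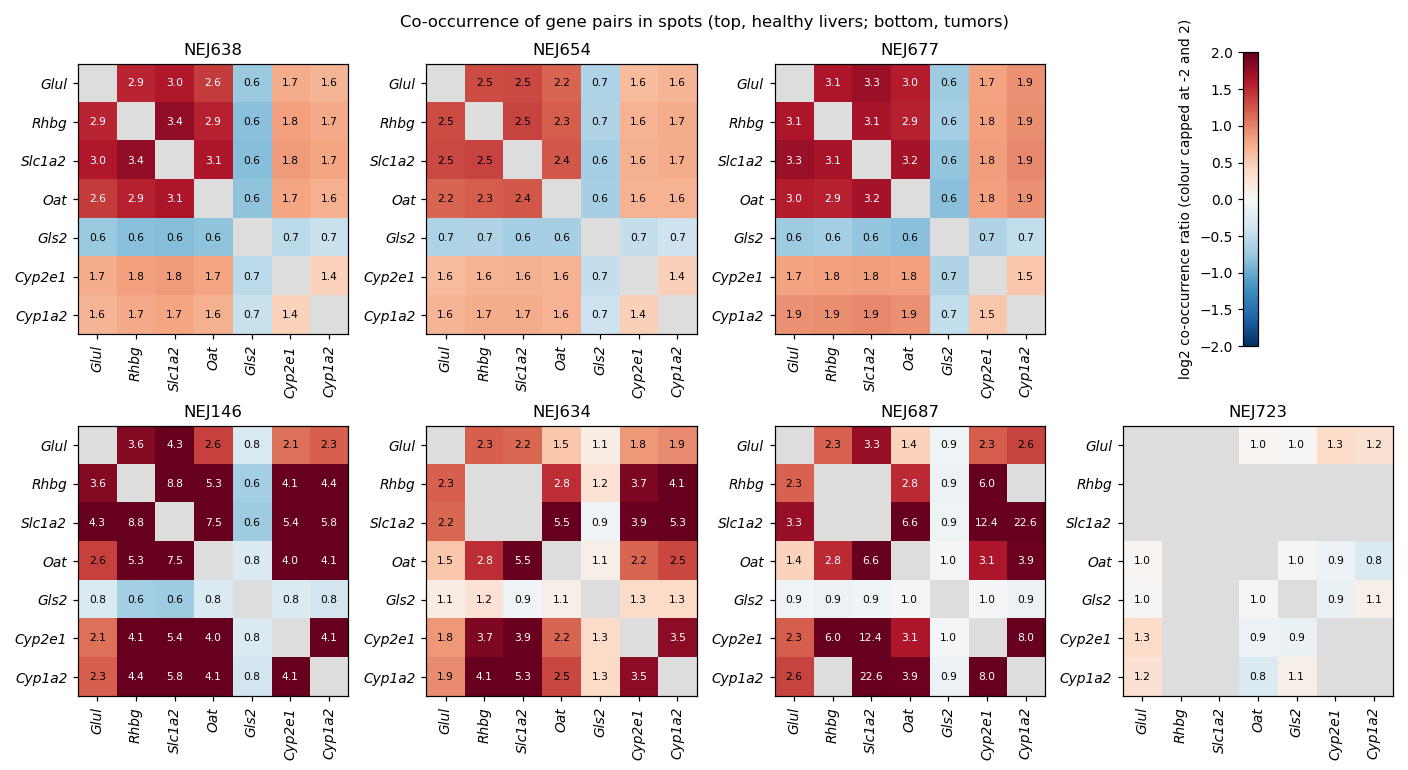
Co-occurrence ratio of each pair of genes in spots, in 3 healthy livers (top) and 4 tumors (bottom); colors give log2 of the ratio, the printed value is the ratio itself, and gray marks a gene with itself or a pair with an expected sum under 10. The 3 livers show 1 pattern, a strong block of 4 genes, a weaker one with the P450 pair and a blue Gls2 row, while the Gls2 row turns pale in NEJ687 and mostly pale red in NEJ634, and few pairs can be judged in NEJ723.

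In the tumors the P450 pair still shared spots in the 3 where it could be judged. In those 3, the pair of Glul and Oat had lower values than in the livers on a scaled measure given below. Pairs sharing spots numbered 15 of 21 in NEJ146, 17 of 20 with enough UMIs in NEJ634, 13 of 19 in NEJ687 and 2 of 9 in NEJ723. Beside Glul, 2.85% of other genes with at least 10 CPM reached 1.2 in NEJ146, 3.07% in NEJ634, 1.07% in NEJ687 and 0.0599% in NEJ723. In all 4 tumors together, 2 of 9 pairs shared spots, Glul with Cyp2e1 and Glul with Cyp1a2. In NEJ723 these ratios were 1.29 (counting SE 0.194) and 1.23 (counting SE 0.239), within 2 SE of 1, so that neither is distinguishable from no relation there. Without NEJ723, the other 3 tumors shared 13 of 19 pairs, and 0.495% of 7267 other genes reached 1.2 with Glul in all 3. Of 7065 other genes, 0% reached 1.2 with Glul in all 4 tumors (0 genes; this is a rule of size with no test). The rule for the background asked for 10 CPM in every tumor, which Cyp2e1 and Cyp1a2 do not reach, and Glul itself was nearly even in NEJ723.

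Cyp2e1 and Cyp1a2 had ratios of 4.10 ± 0.624 (SD, n = 4) in NEJ146, 3.46 (counting SE 0.104) in NEJ634 and 8.01 (counting SE 0.473) in NEJ687, against 1.38 to 1.47 in the livers. The ratio of 2 genes rises when their patterns match more closely. For genes that share spots, it also rises when the RNA of each is gathered into fewer spots. To compare pairs across such differences, the excess over 1 was divided by the geometric mean of the excess of each gene with itself, a measure added after the values were seen, which is 1 for 2 genes with the same pattern. On this scale Cyp2e1 and Cyp1a2 stood at 0.976, 0.960 and 0.946 in NEJ638, NEJ654 and NEJ677 and at 0.921 ± 0.00729 (SD, n = 4), 0.921 and 0.899 in NEJ146, NEJ634 and NEJ687, so these 3 tumors lay somewhat below every liver. In the livers this made Cyp1a2 closer to Cyp2e1 than Slc1a2 was, at 0.701, 0.748 and 0.688. With spots over 3 steps from any off-tissue spot the plain ratio of the P450 pair was 3.898 in NEJ634 and 8.74 in NEJ687.

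Glul and Oat stood at 0.976, 0.942 and 0.958 in the livers and at 0.684 ± 0.0218 (SD, n = 4), 0.527 and 0.510 in NEJ146, NEJ634 and NEJ687. Their plain ratio was 2.65, 2.24 and 2.97 in the livers, 2.58 ± 0.215 (SD, n = 4) in NEJ146, 1.46 (counting SE 0.0275) in NEJ634, 1.37 (counting SE 0.0364) in NEJ687 and 1.03 (counting SE 0.0279) in NEJ723. Every tumor for which the scaled value could be had lay below every liver, by a wider gap than for the P450 pair. Single spots rich in Oat widen this gap, since they raise the ratio of Oat with itself, by which the scaled value is divided. In NEJ634, 1 spot held 77 of the 3042 Oat UMIs, and in NEJ146 single spots held up to 148. Scaled values without such spots were not computed, so the size of the gap, above all in NEJ634, is not secured. The SD over adjacent sections of NEJ146 is technical and does not cover the spread between mice. Oat and Cyp2e1 did not separate the tissues in this way, at 0.770 to 0.849 in the livers and 0.793 ± 0.0220 (SD, n = 4), 0.650 and 0.847 in NEJ146, NEJ634 and NEJ687. Oat in those tumors was thus tied to Cyp2e1 more closely than to Glul, the reverse of the order in each of the 3 livers. On the same scale, Glul and Cyp2e1 stood at 0.735, 0.708 and 0.707 in NEJ638, NEJ654 and NEJ677. In NEJ146, NEJ634 and NEJ687 they stood at 0.5398 ± 0.0261 (SD, n = 4), 0.685 and 0.770. Glul too was therefore closer to Cyp2e1 than to Oat in NEJ634 and NEJ687, but not in NEJ146. The limit from single spots rich in Oat holds for this comparison as well.

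Gls2 avoided Glul in the livers, with ratios of 0.600, 0.651 and 0.610. In the tumors the ratio was 0.806 ± 0.0222 (SD, n = 4) in NEJ146, 1.11 (counting SE 0.00949) in NEJ634, 0.942 (counting SE 0.00726) in NEJ687 and 1.02 (counting SE 0.0153) in NEJ723. On this plain ratio all 4 tumors lay above all 3 livers, and NEJ634 was the only one above 1 by more than 2 SE. On the scaled measure NEJ146 lay within the livers, at -0.708 ± 0.134 (SD, n = 4) against -0.872, -0.622 and -0.528. NEJ634 stood at 0.362, and no scaled value could be had in NEJ687 and NEJ723. For Gls2 this measure can run beyond the size of 1 that marks the same pattern. In NEJ638 it was -1.24 with Cyp2e1 and -1.35 with Cyp1a2, so scaled values of Gls2 are uncertain in size. Against Cyp2e1, Gls2 measured 0.656 to 0.715 in the livers and 1.302 (counting SE 0.0115) in NEJ634, where the 2 genes shared spots. The other 3 tumors stayed below 1, at 0.819 ± 0.0801 (SD, n = 4) in NEJ146, 0.973 (counting SE 0.0110) in NEJ687 and 0.916 (counting SE 0.0735) in NEJ723, the last within 2 SE of 1. The ratio of Gls2 with itself within a spot was 1.06 in NEJ146, 1.17 in NEJ634, 0.991 in NEJ687 and 1.003 in NEJ723, against 1.13 to 1.25 in the livers, so NEJ634 lay within the liver range and the other 3 tumors below it.

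**Figure D5:**
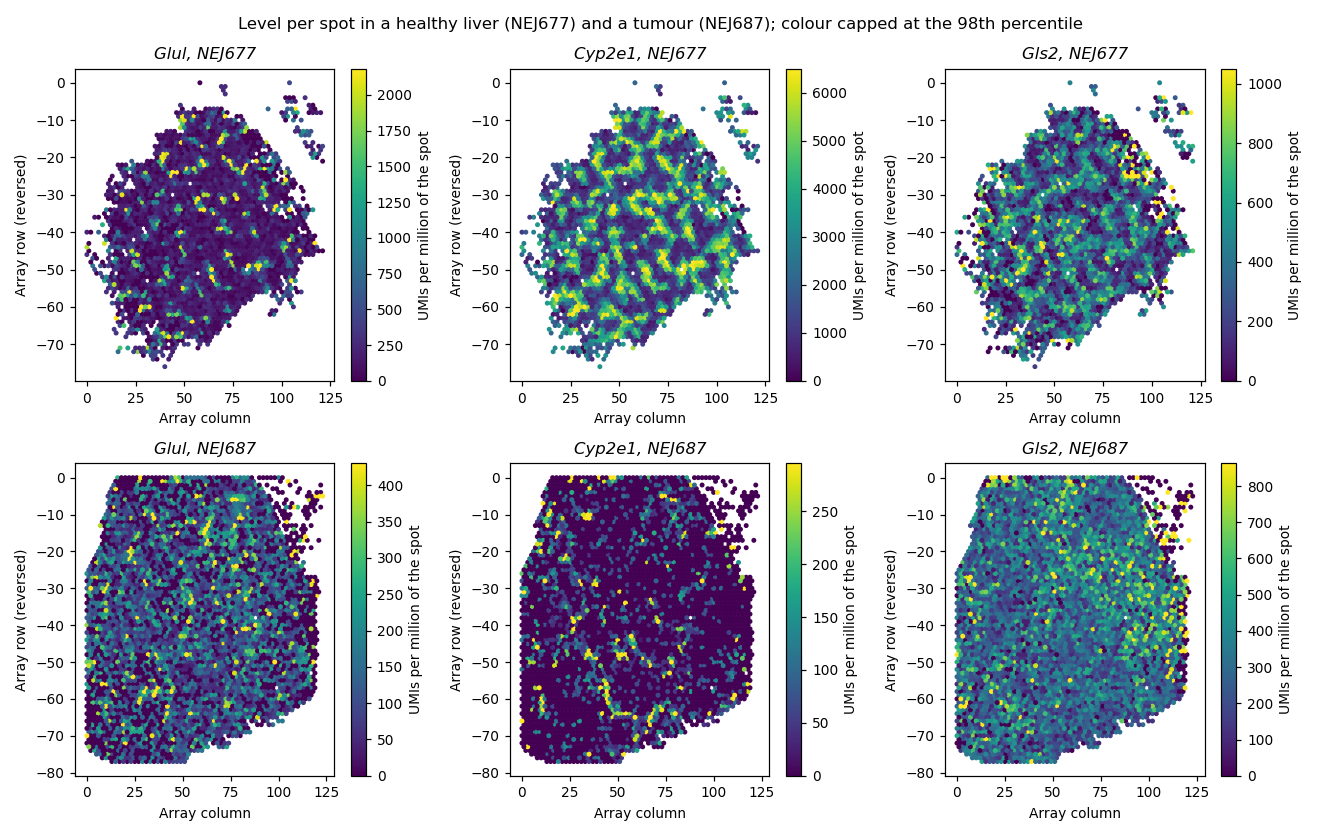
Level per spot (CPM within the spot, color capped at the 98th percentile, axes in array columns and rows) of Glul, Cyp2e1 and Gls2 in the healthy liver NEJ677 and the tumor NEJ687, for tissue spots with at least 500 UMIs; color scales differ between panels. In NEJ677 Cyp2e1 draws a regular net, with Glul in spots within it and Gls2 in the gaps, whereas in NEJ687 Cyp2e1 gathers in scattered patches and Gls2 is spread over the section.

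The tumors differed in how their remaining central RNA was laid out. In NEJ146, Cyp2e1 had a ratio with itself of 4.49 within a spot, 3.32 at 1 step and 2.28 at 6 steps, so high and low areas extended over the section, and Oat followed at 5.17, 2.73 and 1.77. Glul in the same sections was at 2.28, 1.46 and 1.14. In NEJ687 the patches were small, since Cyp2e1 fell from 6.75 within a spot to 2.47 at 1 step and 1.46 at 2 steps, and Cyp1a2 from 11.6 to 2.95 and 1.44. There, 188 of 4458 spots held 50% of the Cyp2e1 UMIs, against 700 spots for Glul and 1085 for Gls2, and Slc1a2 had 10 of its 92 UMIs in a single spot. In NEJ634, 161 of 1890 spots held 50% of the Cyp2e1 UMIs. In NEJ723 Glul, Oat and Gls2 were at 1.03, 1.06 and 1.003 within a spot, close to an even spread, and Cyp2e1 was seen in 46 of 2396 spots (1.92%, Wilson 95% interval 1.44 to 2.55).

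Tumor spots rich in these genes differed in their Afp. Cyp2e1 and Afp had a ratio of 0.583 ± 0.0407 in NEJ146 (SD, n = 4), 0.808 in NEJ634 and 0.962 (counting SE 0.0619) in NEJ723, but 1.21 in NEJ687. Oat and Afp ran alike at 0.651 ± 0.0393 (SD, n = 4), 0.923, 0.976 and 1.01 in NEJ146, NEJ634, NEJ723 and NEJ687. Glul and Afp lay between 0.957 and 1.07 in all 4 tumors, with 1.0005 ± 0.0829 (SD, n = 4) in NEJ146. In NEJ723 the nearly even spread of Glul leaves little room for another value. In NEJ634 and NEJ687, and on the mean of NEJ146, Glul showed little relation to Afp. With the summed hepatocyte markers, Cyp2e1 had a ratio of 1.73 in NEJ146, 1.01 in NEJ634, 1.28 in NEJ687 and 0.972 (counting SE 0.0567, 53 UMIs) in NEJ723, and with the endothelial markers 1.49, 1.499, 1.28 and 1.24 (counting SE 0.135 in NEJ723), while in the livers these were 0.930 to 1.02 and 1.01 to 1.06. Other lists went different ways in different tumors, the stromal markers at 1.85 in NEJ146 but 0.782 in NEJ634, the erythroid markers at 0.450 against 1.63 and the macrophage markers at 0.882 against 1.65. The share of these cell types in the result was not tested.

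The genes most like Cyp2e1 in the 4 tumors, by the lowest ratio among 7066 genes with at least 10 CPM in each, were Serpina3m at 1.89, Ces1d, a carboxylesterase, at 1.86 and Mettl7a1 at 1.65. In NEJ723, with its 53 Cyp2e1 UMIs, their ratios were 2.20 (counting SE 0.362), 1.86 (counting SE 0.400) and 1.65 (counting SE 0.262), so the 3 are not ordered beyond counting error. Those most like Cyp1a2 were Serpina3m, Slc27a5, a bile acid CoA ligase, and Gm5617, but in NEJ723, with 43 UMIs, they stood at 1.62 (counting SE 0.331), 1.55 (counting SE 0.269) and 1.57 (counting SE 0.321), about 2 SE or less from 1, which leaves their place among the 7066 genes unsettled. Those most like Glul reached only 1.14 for Fbln2, a matrix protein, 1.11 for Serpina3m and 1.11 for Entpd1, and those most like Oat 1.11 for Snap23, 1.1002 for Tgds and 1.09 for Pecam1. None of these 7065 genes reached 1.2 with Glul or Oat in all 4 tumors, a level that the nearly even spread of both genes in NEJ723 leaves little room for. The Wnt signals of central vein endothelium were scarce throughout. Wnt2 measured 6.60, 7.65 and 7.46 CPM in NEJ638, NEJ654 and NEJ677 and 0.412 to 2.56 CPM in the tumors, and Rspo3 6.21, 6.99 and 4.66 CPM against 0.275 to 2.79 CPM, with NEJ723 lowest for both. Wnt9b overlapped between the 2 sides, at 0.941 to 1.43 CPM in the livers and 0.548 to 1.39 CPM in the tumors.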

How the data were processed

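The values analysed were raw UMI counts per gene and spot, deposited by the authors with no normalization. Per the labels, NEJ146 was processed with Cell Ranger 6.0 and the other tissues with Space Ranger 1.3 on mm10, and the build for NEJ146 is not given in the sources used here. The other deposited values used, per the file contents, were the tissue call and array position of each spot in 6 tissues. The array positions are the same in those 6 tissues and were also used for NEJ146. Tissue spots, those called tissue or, in NEJ146, those with at least 8000 UMIs, were summed to counts per 1000000 UMIs (CPM). Intervals are exact Poisson at 95% for levels, binomial order statistics for positions and counting SEs for ratios, and cover counting error only. Co-occurrence needed an expected sum of at least 10. With 1 section per tissue, no test was run. The 4 sections of NEJ146 are adjacent cuts of 1 tumor, so their SD is technical. The 7 genes, the lists and the rules were chosen with earlier results of these data known. Genes of the fixed lists were named as the 2 largest and 2 smallest ratios of lowest liver to highest tumor, and like genes as the 3 highest of the lowest co-occurrence ratio among genes with at least 10 CPM in each tissue. The genes counted by name beside a list were named after their values were seen, and some genes of the lists are not reported here. Positions come from GENCODE M21 on GRCm38 and promoters from RefSeq on GRCm38.p6. The ratios and positions were tested on simulated spots whose totals did not follow the gene pattern. The simulation held no near-empty spots and no single spots rich in a gene, and it did not cover the scaled measure. Analyses used Python 3.11.15 with numpy 2.4.6, scipy 1.17.1, pandas 2.3.3 and matplotlib 3.10.9.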

Additional observations from a re-analysis of the deposited data

Results flagged for a closer look

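The ratios of Cyp2e1 and Cyp1a2 with the summed portal marker list lay below 1 in the livers and, as measured, above 1 in the tumors. The co-occurrence ratio of Cyp2e1 with that list was 0.754, 0.765 and 0.721 in NEJ638, NEJ654 and NEJ677. In the tumors it was 1.27 in NEJ146, 1.31 in NEJ634, 1.15 in NEJ687 and 1.004 in NEJ723. For Cyp1a2 the ratio was 0.781, 0.787 and 0.761 in the same livers and 1.19, 1.29, 1.101 and 1.06 in the same tumors. All 3 livers thus lay below 1 and all 4 tumors above it for both genes, and this difference was not tested. The sum is also made up differently in livers and tumors. Of its 11 genes, Cyp2f2 measured 727 to 1072 CPM in the livers and 8.16 to 76.0 CPM in the tumors. Aldh1b1 measured 122 to 198 CPM in the livers and 592 to 718 CPM in the tumors. Which of the listed genes carry the difference was not tested. The ratios in NEJ723 rest on 53 and 43 UMIs with counting SEs of 0.0583 and 0.0596, so neither is distinguishable from 1 there.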

How the results depend on the processing

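Among the counts of genes and pairs, those for higher levels in the livers (6 of 7), a central position (6 of 7) and shared spots in the livers (15 of 21) stayed within 1.5 times of their value under every alternative run, with 5 of 7 at 3-fold and 14 of 21 at a ratio of 1.5. The count of pairs shared by all 4 tumors (2 of 9) became 0 at a ratio of 1.5, 1 of 9 with spots over 3 steps from any off-tissue spot, and 13 of 19 with NEJ723 left out, where more pairs could be judged, and stayed 2 of 9 with NEJ687 left out. It ranged from 2 to 2 when each NEJ146 section was left out. The settings on spots over 3 steps and on NEJ723 and NEJ687 were chosen after seeing the data. No alternative reversed a value. Of 392 recomputed levels 27 moved by more than their error, and of 126 recomputed positions 38 did, by at most 1.18-fold. Low UMI counts of single genes limit the pairs in NEJ723, which held 0 UMIs of Rhbg, 2 of Slc1a2, 53 of Cyp2e1 and 43 of Cyp1a2. No paired analysis of livers and tumors was possible because each mouse gave 1 tissue.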
